A study of Mus musculus with 24 samples.

Results

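The genes described here were YAP and its relative TAZ, 2 of the TEAD factors they bind, and genes named as responding to them. They were 10 genes of the 56941 in the deposited tables: Yap1, Wwtr1 (which encodes TAZ), Tead1, Tead4, Lats2, Amotl2, Ccn1, Ccn2, Ankrd1, and Axl. They were found by gene name, and each name matched 1 gene. They were put together as mechanosensitive genes, and the list was chosen by 1 measured value, the lower level of Ccn1 at every stimulation frequency, so the level of Ccn1 against control is given as a description without a test. All 10 genes passed the filter on low counts and were among the 13318 genes tested.

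YAP and TAZ are coactivators that carry mechanical cues from adhesions and the actin cytoskeleton into the nucleus. They do not bind DNA themselves and act through the TEAD factors, which bind the core motif GGAATG and its complement. The Hippo kinases, LATS1 and LATS2 among them, phosphorylate YAP and TAZ and hold them in the cytoplasm, and angiomotin family proteins bind them there. Ccn1 (also Cyr61) and Ccn2 (also Ctgf) encode secreted matricellular proteins and are widely used readouts of this pathway, as is Ankrd1, which encodes a muscle ankyrin repeat protein linked to titin. In muscle, YAP is known for its part in myoblast proliferation and in the growth of loaded fibers.

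Bulk RNA sequencing (RNA-seq) covered 24 muscle tissues made from the mouse myoblast line C2C12, whose cells fuse into multinucleated fibers in culture. They were grown as 2D sheets on grooved fibrin gels in differentiation medium with horse serum and IGF-1. The cells of every condition, control included, carried the light-gated channel ChR2(H134R) fused to tdTomato. Stimulated tissues received daily sessions of blue light pulses lasting 30 min, at 1, 4, or 10 Hz, control tissues received none, and each of these 4 conditions had 6 libraries. All results thus came from 1 cell line, whose tissues also twitched spontaneously in every condition, and the study describes the tissues of a condition as biological replicates in wells of multi-well plates.

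Total estimated counts ranged from 4.09 to 15.2 M (mega) per library, with a median of 7.48 M. The genes described here were well counted, the lowest being Tead4 with 204 estimated counts in 1 library at 1 Hz. The summed level of 6 myotube markers was high in all libraries. It was 6160 to 7761 CPM (counts scaled to a common library total) in control, 8683 to 12037 at 1 Hz, 9218 to 14600 at 4 Hz, and 5972 to 9198 at 10 Hz. The share of non-polyadenylated small RNA (188 genes, 64 of them with any count) was 64.3 to 115 CPM in control, 7.17 to 34.0 at 1 Hz, 12.8 to 27.3 at 4 Hz, and 26.7 to 214 at 10 Hz. It was therefore lower in every 1 Hz and 4 Hz library than in every control library, and overlapped control at 10 Hz. The labels state that low-input samples were prepared by ribodepletion and do not name them. In bulk tissue, fewer cells of a type and less RNA per cell cannot be told apart.

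Where a promoter sequence was at hand, most of these genes carried the TEAD motif close to their start. RefSeq windows on the GRCm38.p6 build covered 7 of the 10 genes (Yap1, Wwtr1, Lats2, Amotl2, Ccn1, Ankrd1, and Axl), and the 250 bases before each start were searched on both strands. GGAATG was found before 6 of the 7 and was found before 12.64% of all 32851 such windows. The 6 genes and their matches are shown because they include both the gene with the widest range across conditions, Ccn1, and genes whose level hardly moved. Each stretch is written 5′ to 3′ on the strand that reads GGAATG, with the motif in capitals.
Ccn1, chr3:145650083-145650088, 98 bases before the start, strand opposite to the gene: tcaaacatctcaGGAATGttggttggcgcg
Amotl2, chr9:102717739-102717744, 60 bases before the start, strand opposite to the gene: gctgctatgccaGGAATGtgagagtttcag
Ankrd1, chr19:36120049-36120054, 205 bases before the start: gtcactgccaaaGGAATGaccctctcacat
Ankrd1, chr19:36119962-36119967, 118 bases before the start: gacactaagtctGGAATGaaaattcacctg
Yap1, chr9:8004732-8004737, 136 bases before the start: cgggagtctgcaGGAATGtagcgacgcgca
Wwtr1, chr3:57576041-57576046, 131 bases before one listed start and 165 before another: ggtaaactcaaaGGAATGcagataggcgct
Axl, chr7:25788961-25788966, 228 bases before the start: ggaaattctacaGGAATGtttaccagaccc
The coordinates are those of the motif. None of the 7 windows held the AP-1 motif TGANTCA (6.75% of all windows), the CRE motif TGACGTCA (1.55%), or a CArG box (1.47%), the sites of AP-1, CREB, and SRF, respectively. No TEAD match overlapped another motif. Only these exact patterns were searched, so partial or shorter sites of the same factors were not counted. A match of this kind is a description of the sequence and does not show binding in these tissues.

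For Ccn1, the whole stretch before the start is given, as its level differed most between conditions. It lies at chr3:145649986-145650235 on the minus strand (GRCm38.p6, RefSeq) and is written on the strand of the gene, where the same site reads CATTCC, in capitals.
Ccn1: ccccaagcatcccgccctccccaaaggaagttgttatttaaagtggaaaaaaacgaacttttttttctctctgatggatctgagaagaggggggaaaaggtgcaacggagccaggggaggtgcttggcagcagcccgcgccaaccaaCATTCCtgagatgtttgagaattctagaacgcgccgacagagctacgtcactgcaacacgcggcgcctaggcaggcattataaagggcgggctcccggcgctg

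Of all 10 genes, Ccn1 and Ccn2 reached the largest differences from control, each at 4 Hz. Ccn1 was lower at every frequency and lowest at 4 Hz, and Ccn2 fell at 4 Hz but did not pass at 1 Hz or 10 Hz. The remaining genes, including those for YAP, TAZ, and the TEAD factors themselves, differed from control by 0.38 or less on the log2 scale in either direction.

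Ccn1 (ENSMUSG00000028195) has 5 exons and lies on chromosome 3 from 145352720 to 145355738 on the minus strand (GRCm39, GENCODE M39). In the 6 control libraries, its level was 311, 367, 369, 397, 414, and 425 CPM. In the 1 Hz libraries, it was 134, 144, 188, 190.1, 198, and 235 CPM. In the 4 Hz libraries, it was 71.4, 71.9, 72.1, 87.6, 93.8, and 133 CPM. Every 1 Hz and 4 Hz library was thus below every control library. In the 10 Hz libraries, it was 105, 131, 137, 183, 216, and 237 CPM, which was again below all control libraries and overlapped 1 Hz, with 2 libraries below its range and 1 above it. The means were 380.5 ± 41.1 CPM in control, 182 ± 37.2 at 1 Hz, 88.3 ± 23.95 at 4 Hz, and 168 ± 52.0 at 10 Hz (SD, n = 6 each), so the stimulated means were 47.8%, 23.2%, and 44.2% of the control mean. On the log2 scale of the fit, the difference from control was −1.07 ± 0.17 (SE) at 1 Hz, −2.11 ± 0.18 at 4 Hz, and −1.18 ± 0.17 at 10 Hz. These 3 differences share the control libraries and are the values that chose the gene. Of all tested genes, 5.86% at 1 Hz, 7.93% at 4 Hz, and 1.30% at 10 Hz had all 6 stimulated libraries below all 6 control libraries.

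**Figure D1:**
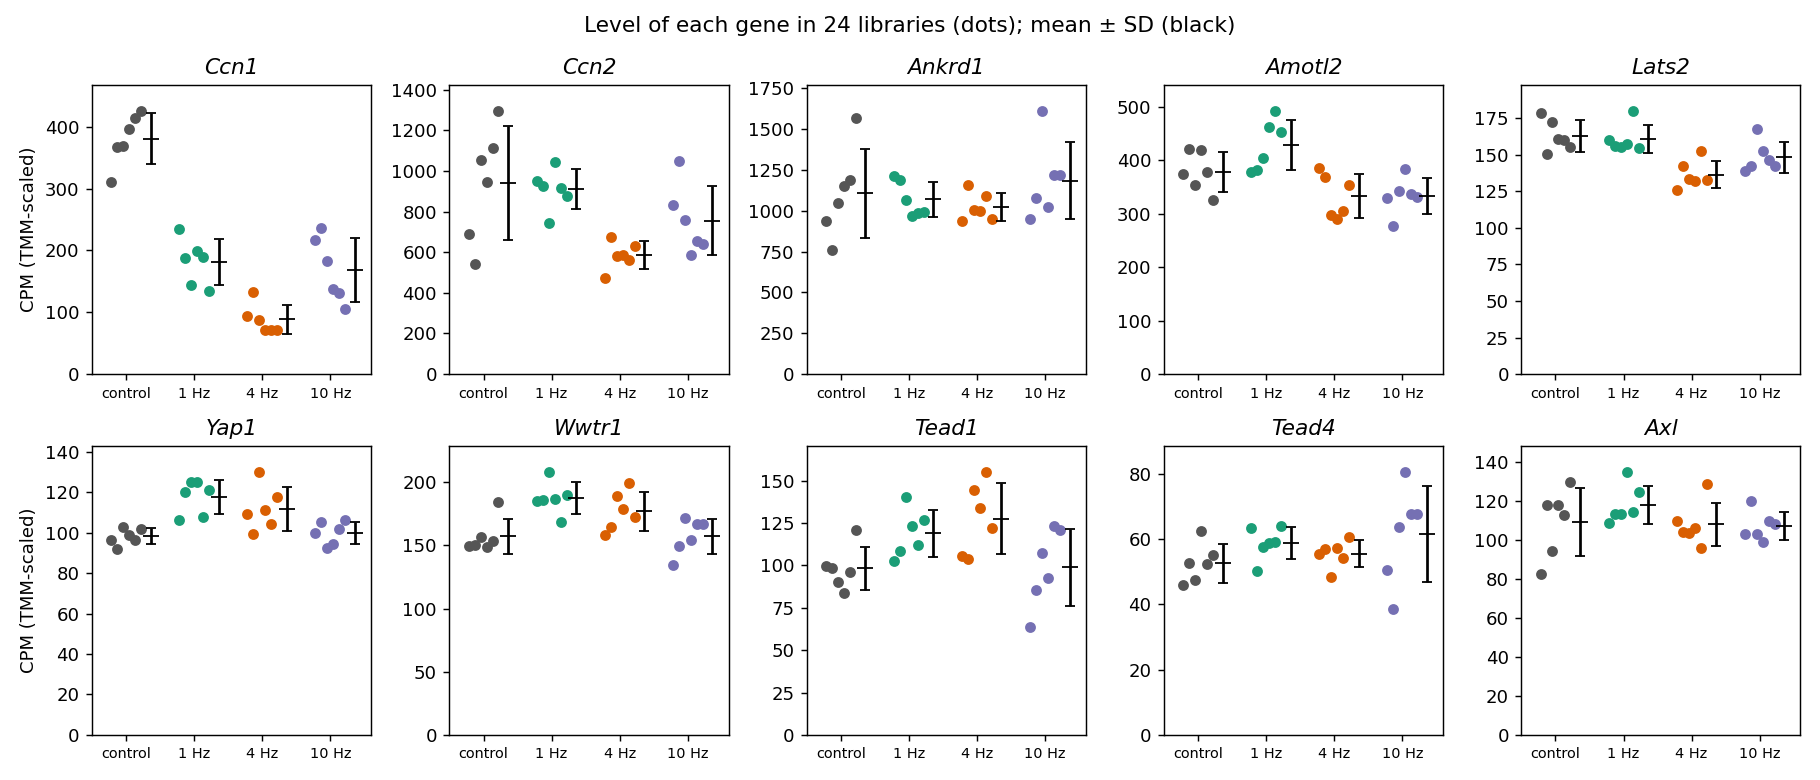
Level of each of the 10 genes (y axis, CPM scaled with TMM factors, starting at 0) in the 6 libraries of each condition (x axis); dots are libraries, black bars the mean and SD. Ccn1 ran from 311 to 425 CPM in control and from 71.4 to 133 CPM at 4 Hz, Ccn2 was lowest at 4 Hz with a wide spread in control, and the other 8 genes overlapped control at every frequency, except Yap1 at 1 Hz.

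The choice rested on the lower level of Ccn1 against control and stated no difference between frequencies. Those differences were tested on the same stimulated libraries that the choice used, so their p-values are not independent of the choice. Ccn1 fell from 1 Hz to 4 Hz, with all 4 Hz libraries below all 1 Hz libraries (log2 fold change −1.04 ± 0.18 SE, edgeR adjusted p = 0.000481). It was higher at 10 Hz than at 4 Hz by 0.93 ± 0.18 (adjusted p = 0.000677), although the lowest 10 Hz libraries, at 105 and 131 CPM, lay below the highest 4 Hz library at 133 CPM. Between 10 Hz and 1 Hz, the difference was −0.11 with a 95% interval of −0.46 to 0.25 (adjusted p = 0.664).

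The small RNA share moved with the level of Ccn1 in part. Its 2 highest values at 10 Hz, 135 and 214 CPM, were above the highest control value of 115 CPM. Ccn1 in those libraries was 216 and 237 CPM. Within 10 Hz, the 3 libraries with the largest small RNA share were also the 3 with the most Ccn1. With the log2 small RNA share as a covariate in the fit, the difference of Ccn1 from control was −0.10 at 1 Hz, −1.23 at 4 Hz, and −1.16 at 10 Hz. The same covariate moved the difference between 10 Hz and 4 Hz to 0.07 and that between 10 Hz and 1 Hz to −1.07, while that between 4 Hz and 1 Hz was −1.14. At 1 Hz and 4 Hz, the share did not overlap control, so that stimulation and library composition cannot be told apart there. At 10 Hz, the share overlapped control, and the part of library composition in the level of Ccn1 was not tested.

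**Figure D2:**
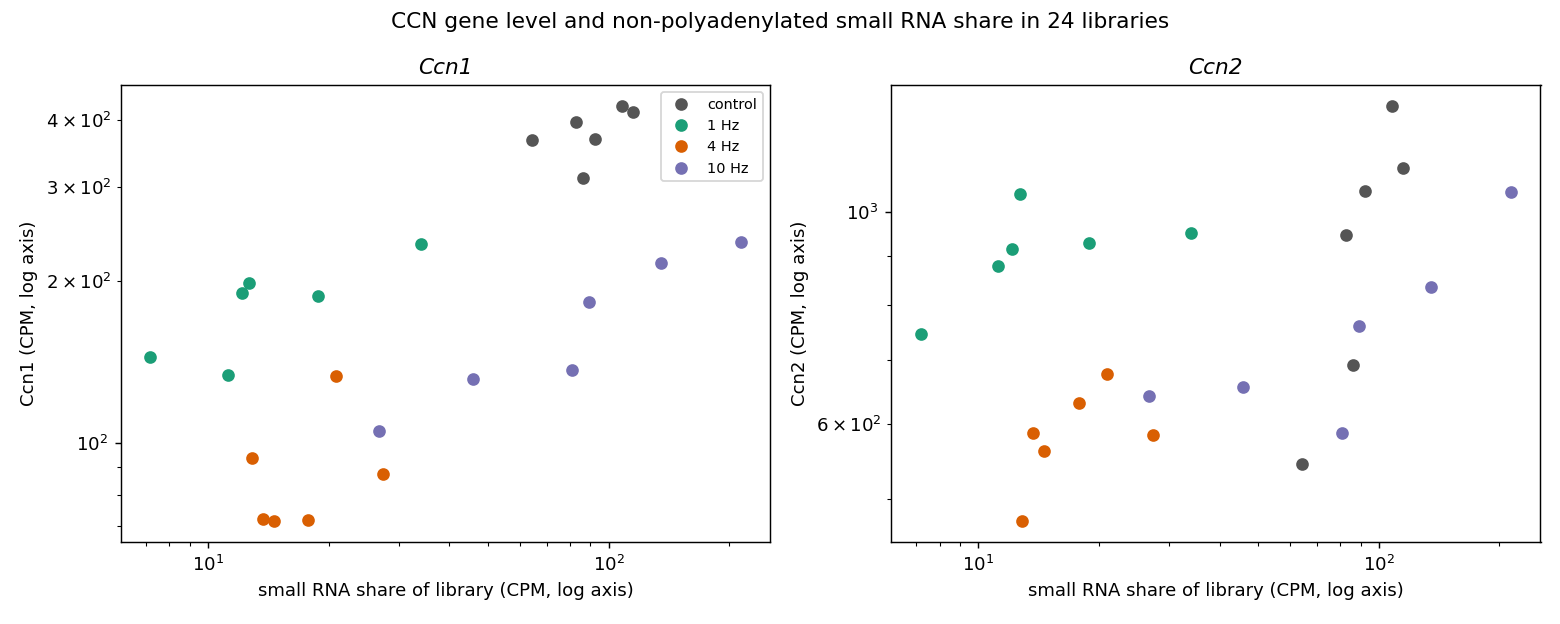
Level of Ccn1 (left) and Ccn2 (right) in CPM against the share of non-polyadenylated small RNA in CPM, both on log axes, with 1 dot per library colored by condition. The small RNA share was 64.3 to 115 CPM in control, 26.7 to 214 CPM at 10 Hz, and 7.17 to 34.0 CPM over the 1 Hz and 4 Hz libraries.

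Ccn2 (ENSMUSG00000019997, chromosome 10 from 24471333 to 24474900, 5 exons) is the nearest relative of Ccn1 among the genes described, and its protein is known for promoting matrix deposition. Its control libraries held 544, 691, 947, 1054, 1113, and 1294 CPM, a wide spread. The 1 Hz libraries held 745, 877, 915, 928, 951, and 1046 CPM. The 4 Hz libraries held 474, 562, 583, 586, 630.1, and 676 CPM, all below all 1 Hz libraries and below all control libraries but that at 544 CPM. The 10 Hz libraries held 587, 641, 655, 760.3, 834, and 1051 CPM and overlapped every other condition.

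The mean of Ccn2 was 940.3 ± 278 CPM in control and 585 ± 68.1 at 4 Hz (SD, n = 6 each), a fall of log2 fold change −0.68 ± 0.16 (SE, edgeR adjusted p = 0.00119). At 1 Hz, the mean was 910.3 ± 98.7 CPM and the difference was −0.05 (95% interval −0.37 to 0.27, adjusted p = 0.839). At 10 Hz, the mean was 755 ± 170.3 CPM and the difference was −0.32 (95% interval −0.64 to 0.00, adjusted p = 0.247). Ccn2 also fell from 1 Hz to 4 Hz by 0.64 on the log2 scale (SE 0.16, adjusted p = 0.00869), and 10 Hz differed from 4 Hz by 0.37 (adjusted p = 0.0894). With the small RNA share as a covariate, the difference of 4 Hz from control was −0.08 (adjusted p = 0.896) and that of 4 Hz from 1 Hz was −0.71 (adjusted p = 0.00126).

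Per transcript length, Ccn2 was the more abundant of the pair, and its mean ratio to Ccn1 was higher at every frequency than in control. In TPM (values scaled for transcript length and library total), the ratio of Ccn2 to Ccn1 was 2.12 ± 0.476 in control (SD, n = 6), 4.52 ± 0.795 at 1 Hz, 6.14 ± 1.52 at 4 Hz, and 4.02 ± 0.684 at 10 Hz. The highest control ratio, 2.61, was below the lowest stimulated ratio, 3.37 at 10 Hz. As the ratio contains the level that chose Ccn1, it was not tested.

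Ankrd1 (ENSMUSG00000024803, chromosome 19 from 36089352 to 36097506, 9 exons), the third classical target, showed no such pattern. Its lowest, median, and highest libraries were 760.4, 1097, and 1567 CPM in control, 968, 1030.3, and 1214 at 1 Hz, 938, 1001, and 1156 at 4 Hz, and 952, 1151, and 1609 at 10 Hz. All conditions overlapped, and the 2 highest libraries belonged to control and 10 Hz. The log2 differences from control were −0.05 (95% interval −0.31 to 0.21), −0.12 (−0.38 to 0.15), and 0.10 (−0.17 to 0.36), with edgeR adjusted p of 0.786, 0.498, and 0.726.

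Axl (ENSMUSG00000002602, chromosome 7 from 25456535 to 25488329, 20 exons) encodes a receptor tyrosine kinase for GAS6. Its lowest, median, and highest libraries were 82.5, 115, and 129.9 CPM in control, 108, 114, and 135 at 1 Hz, 96.0, 105, and 129 at 4 Hz, and 99.1, 106, and 120.1 at 10 Hz. No condition stood apart, and all 95% intervals of its difference from control lay between −0.22 and 0.30 on the log2 scale.

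Amotl2 and Lats2 encode inhibitors of YAP and TAZ that are themselves known targets, a negative feedback. Amotl2 (ENSMUSG00000032531, chromosome 9 from 102593836 to 102610617, 10 exons) had lowest, median, and highest libraries of 326, 376, and 422 CPM in control, 379, 429, and 492 at 1 Hz, 291, 329, and 386 at 4 Hz, and 278, 335, and 383 at 10 Hz. Every condition overlapped control. It was highest at 1 Hz, and the differences of 4 Hz and 10 Hz from 1 Hz, both −0.36 ± 0.09 (SE), had edgeR adjusted p of 0.00969 and 0.00290 but were under the fold threshold of 0.5. Against control, the differences were 0.18 at 1 Hz, −0.18 at 4 Hz, and −0.18 at 10 Hz, with adjusted p from 0.110 to 0.255.

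Lats2 (ENSMUSG00000021959, chromosome 14 from 57926960 to 57995845, 8 exons) held 150.1 to 178 CPM in control with a median of 160.2, 155 to 179.6 at 1 Hz with a median of 157, 126 to 152 at 4 Hz with a median of 133, and 139 to 168 at 10 Hz with a median of 144. All 4 Hz libraries were below all 1 Hz libraries, and 5 of 6 were below all control libraries. The difference of 4 Hz from control was −0.26 ± 0.07 (SE, adjusted p = 0.00329) and that from 1 Hz was −0.24 ± 0.07 (adjusted p = 0.0198), both under the fold threshold. On length-scaled values, the difference at 4 Hz was larger, with levels of 58.5 ± 2.52 TPM in control, 49.7 ± 5.70 at 1 Hz, 38.1 ± 2.73 at 4 Hz, and 49.7 ± 3.85 at 10 Hz. There, limma on log2(TPM + 1) gave −0.61 for 4 Hz against control (adjusted p = 2.46e-06), past both thresholds, with a median over all genes of −0.16 on that scale.

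The coactivator genes moved little. Yap1 (ENSMUSG00000053110, chromosome 9 from 7932000 to 8004661, 8 exons) held 92.2, 96.5, 96.6, 99.1, 102, and 103 CPM in control and 106, 108, 120.1, 121, 125, and 125 CPM at 1 Hz. All 6 of the 1 Hz libraries were above all control libraries, by a mean difference of 0.26 ± 0.07 (SE, edgeR adjusted p = 0.00452), which was under the fold threshold. At 4 Hz, the level ranged from 99.3 to 130.1 CPM and the difference was 0.19 ± 0.07 (adjusted p = 0.0310). At 10 Hz, it ranged from 92.6 to 106 CPM, within 0.03 of control (95% interval −0.12 to 0.17), and differed from 1 Hz by −0.24 on the log2 scale without overlap of the libraries (adjusted p = 0.00857).

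Wwtr1 (ENSMUSG00000027803, chromosome 3 from 57363067 to 57483331, 7 exons) had lowest, median, and highest libraries of 149, 152, and 184 CPM in control, 168, 186, and 208 at 1 Hz, 158, 175, and 199 at 4 Hz, and 134, 160.5, and 171 at 10 Hz. Its control libraries lay between 149 and 157 CPM but for the highest, so that a single control library made the overlap with 1 Hz and 4 Hz. The differences from control were 0.25 ± 0.08 at 1 Hz (SE, adjusted p = 0.0101), 0.17 at 4 Hz (adjusted p = 0.0684), and 0.00 at 10 Hz (95% interval −0.15 to 0.16), and 10 Hz differed from 1 Hz by −0.25 (adjusted p = 0.00976).

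Among all pairs of the 10 genes, Wwtr1 and Yap1 had the smallest difference in centered level. After each was centered on its mean over the 24 libraries, their log2 CPM differed by a root mean square of 0.12, against 0.15 and 0.14 for the spread of each alone. This is a description over libraries that share conditions and scaling. The measure is also small for genes that vary little, so it does not rank how closely pairs moved together. The ratio of Wwtr1 to Yap1 in TPM stayed between a mean of 1.32 at 1 Hz and 1.37 in control and at 10 Hz.

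Tead1 and Tead4 did not pass both thresholds in any comparison. Tead1 (ENSMUSG00000055320, chromosome 7 from 112278522 to 112506014, 14 exons) had lowest, median, and highest libraries of 83.9, 97.4, and 121 CPM in control, 103, 118, and 140.3 at 1 Hz, 104, 128, and 155 at 4 Hz, and 63.9, 99.97, and 123 at 10 Hz. The conditions overlapped, with 4 Hz highest. Its difference from control was 0.28 at 1 Hz (adjusted p = 0.0972), 0.38 ± 0.13 at 4 Hz (SE, adjusted p = 0.0241), and 0.01 at 10 Hz (adjusted p = 0.980), and 10 Hz differed from 4 Hz by −0.37 (adjusted p = 0.0416). On the scale of TPM, the 4 Hz and 1 Hz levels were alike, 20.4 ± 2.84 and 20.7 ± 3.24.

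Tead4 (ENSMUSG00000030353, chromosome 6 from 128201251 to 128277786, 12 exons), a factor known from myoblast differentiation, had lowest, median, and highest libraries of 45.8, 52.5, and 62.5 CPM in control, 50.3, 58.9, and 64.0 at 1 Hz, 48.4, 56.2, and 60.7 at 4 Hz, and 38.6, 65.6, and 80.6 at 10 Hz. The 10 Hz libraries spanned those of all other conditions. Its differences from control were 0.16, 0.08, and 0.22, with adjusted p from 0.295 to 0.634. Both other TEAD genes were detected as well. Tead3 rose from 12.9 ± 2.01 CPM in control to 19.3 ± 4.45 at 1 Hz (log2 fold change 0.58 ± 0.18 SE, adjusted p = 0.0122) and 20.7 ± 5.26 at 4 Hz (0.69 ± 0.18, adjusted p = 0.00305). Tead2 was at 25.7 ± 4.16 CPM in control and differed by 0.32 at 1 Hz (adjusted p = 0.0235), under the fold threshold.

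**Figure D3:**
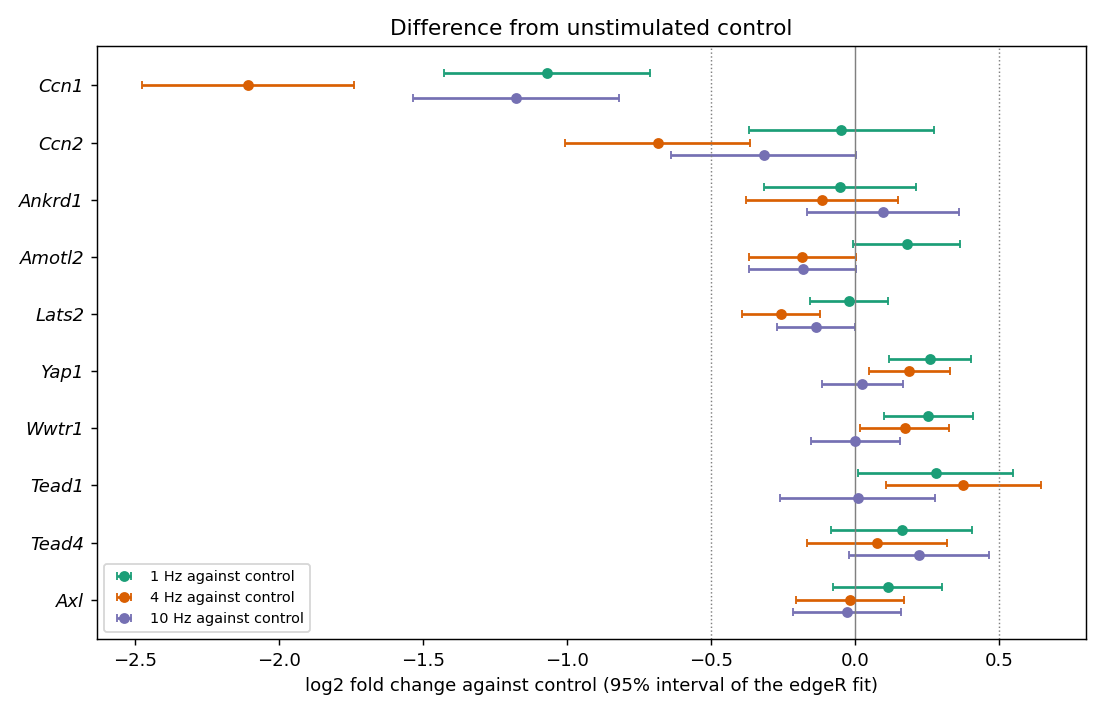
Log2 fold change against control (x axis) of each of the 10 genes (y axis) at 1, 4, and 10 Hz; dots are estimates of the edgeR fit, bars 95% intervals, and dotted lines mark the fold threshold of 0.5 in each direction. All 3 estimates of Ccn1 and the 4 Hz estimate of Ccn2 lay below the lower line, and all estimates of the other 8 genes lay between the lines.

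Counted over the 9 genes other than Ccn1, the number past both thresholds (adjusted p below 0.05 and absolute log2 fold change above 0.5) was 0 at 1 Hz, where 18.3% of all tested genes passed. At 1 Hz, 3 of the 9 had an unadjusted edgeR p below 0.05, and DESeq2 counted 0. The share of all genes at that unadjusted p is not given here. At 4 Hz, 1 of the 9 passed, Ccn2, against 20.1% of all tested genes in either direction and 9.61% in the lower direction. At 10 Hz, 0 of the 9 passed, where 1.86% of all genes did, 0 had an unadjusted p below 0.05, and DESeq2 counted 0. In the 1 Hz comparison, Yap1 was the 1 gene of the 9 whose libraries did not overlap control, on the higher side, as in 7.22% of all genes.

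Between frequencies, all 10 genes were counted, Ccn1 among them. The choice had used its stimulated libraries, so its part of each count is not independent of the choice. Of the 9 genes other than Ccn1, only Ccn2 passed between frequencies, for 4 Hz against 1 Hz. Ccn1 and Ccn2 were the 2 of 10 that passed for 4 Hz against 1 Hz, both lower, where 3.00% of all genes passed in either direction and 1.40% in the lower direction. Libraries of 3 genes (Ccn1, Ccn2, and Lats2) were all lower at 4 Hz without overlap, as in 3.33% of all genes. For 10 Hz against 1 Hz, 0 of 10 passed against 17.9% of all genes, 4 had an unadjusted edgeR p below 0.05, and DESeq2 counted 0. No share of all genes is given here for the unadjusted count. The libraries of Yap1 were all lower at 10 Hz than at 1 Hz, as in 7.49% of all genes. For 10 Hz against 4 Hz, 1 of 10 passed, Ccn1, which was higher, against 11.0% of all genes in either direction and 5.32% in the higher direction.

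The order of the genes by length-scaled level was similar in all conditions except for Ccn1. In control, mean levels were 927 TPM for Ankrd1, 635 for Ccn2, 297 for Ccn1, 155 for Amotl2, 58.5 for Lats2, 50.3 for Wwtr1, 43.6 for Axl, 36.8 for Yap1, 32.2 for Tead4, and 17.3 for Tead1. Ankrd1 and Ccn2 overlapped, as did each neighboring pair from Lats2 to Tead4, and the other neighbors in this order did not. At 4 Hz, Ccn1 stood at 60.7 ± 18.3 TPM, below Amotl2 at 119 ± 15.8 without overlap and overlapping Wwtr1 at 49.7 ± 4.92. Tead4 exceeded Tead1 in every condition, with a mean ratio in TPM from 1.47 at 4 Hz to 2.09 at 10 Hz.

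Other genes of the pathway and of related groups (CCN and Axl families, integrin subunits, and SRF with MRTF) were read from 7 lists of 66 genes, 63 of which were tested. The lists were chosen with earlier results of these data known, so the shares of all genes stand beside them as a description. At 1 Hz, 15 rose and 2 fell, at 4 Hz, 12 rose and 5 fell, and at 10 Hz, 0 rose and 2 fell, against 9.34% higher and 8.99% lower of all tested genes at 1 Hz, 10.5% and 9.61% at 4 Hz, and 1.24% and 0.623% at 10 Hz. The median log2 fold change over the 63 genes was 0.27, 0.13, and −0.014, beside −0.0072, −0.014, and −0.0064 over all tested genes. With the small RNA share as a covariate, 0 of the 63 passed at 1 Hz and 4 at 4 Hz.

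Of 15 tested YAP targets outside the 10 genes, 5 rose and 1 fell at 1 Hz, 5 rose and 2 fell at 4 Hz, and 0 passed at 10 Hz. Beside this, 9.34% of all tested genes rose and 8.99% fell at 1 Hz, and 10.5% rose and 9.61% fell at 4 Hz. At 10 Hz, 1.86% of all tested genes passed. The median over the 15 targets was 0.35 at 1 Hz, 0.37 at 4 Hz, and 0.00060 at 10 Hz. Crim1, a transmembrane protein with cysteine-rich repeats, rose from 12.96 ± 2.48 CPM in control to 26.5 ± 5.00 at 1 Hz (log2 fold change 1.05 ± 0.14 SE, adjusted p = 7.83e-06). F3, which encodes tissue factor, rose from 6.22 ± 0.974 to 13.3 ± 2.23 CPM at 4 Hz (1.08 ± 0.22, adjusted p = 0.000425). Nuak2, a kinase of the AMPK family, rose by 0.91 ± 0.15 at 4 Hz (adjusted p = 3.35e-05), and Ptpn14, a phosphatase that binds YAP, by 0.61 ± 0.10 at 1 Hz (adjusted p = 8.62e-05). Nt5e, an ectonucleotidase, fell from 43.6 ± 8.53 to 25.9 ± 4.29 CPM at 4 Hz (−0.75 ± 0.18, adjusted p = 0.00207), and Myof, a ferlin of membrane repair and fusion, by 0.61 on the log2 scale (adjusted p = 0.00174). Other pathway targets thus stood on both sides of control at 4 Hz, where Ccn1 and Ccn2 were lowest.

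Of the other CCN genes, Ccn4 (also Wisp1) was at 44.3 ± 16.5 CPM in control and rose to 63.6 ± 11.7 at 1 Hz (0.54 ± 0.18, adjusted p = 0.0198) and 65.8 ± 15.2 at 4 Hz (0.58 ± 0.18, adjusted p = 0.0100). Ccn5, which lacks the C-terminal domain of the family, was near the limit of detection, with 1.499 ± 0.827 CPM in control and 3.49 ± 1.16 at 4 Hz (1.21 ± 0.31, adjusted p = 0.00289). The libraries of both genes overlapped control. Ccn3 was under 3 CPM in every library, and Ccn6 had a count of 0 in all 24.

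Among the integrin subunits that bind CCN proteins, Itgb3, which pairs with the αv subunit, was also lowest at 4 Hz. Its mean was 82.9 ± 9.07 CPM in control, 65.7 ± 8.65 at 1 Hz, 33.5 ± 3.76 at 4 Hz, and 50.8 ± 9.23 at 10 Hz. It fell by 1.31 on the log2 scale at 4 Hz (SE 0.11, adjusted p = 2.53e-08) and by 0.70 at 10 Hz (adjusted p = 0.000603), without overlap with control, and it was at −0.34 at 1 Hz (adjusted p = 0.0168), under the fold threshold. Itga6, a laminin-binding subunit, rose by 0.79 ± 0.13 at 1 Hz (adjusted p = 6.11e-05). The other 3 subunits tested, Itgav, Itgb1, and Itgb5, did not pass against control.

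Of the kinases and scaffolds upstream of YAP, 2 of 16 rose and 1 fell at 1 Hz, 1 rose and 1 fell at 4 Hz, and 0 passed at 10 Hz. These counts lay near the shares of all tested genes, 9.34% higher and 8.99% lower at 1 Hz and 10.5% and 9.61% at 4 Hz. At 10 Hz, 1.86% of all tested genes passed. Stk4 (MST1), one of the kinases that activate LATS, fell from 72.4 ± 6.57 CPM to 48.1 ± 3.50 at 1 Hz (−0.59 ± 0.08, adjusted p = 1.01e-05) and 45.5 ± 2.53 at 4 Hz (−0.67 ± 0.08, adjusted p = 8.95e-07). Amot, which encodes angiomotin, rose by 0.55 ± 0.13 at 1 Hz (adjusted p = 0.00253) and 0.61 ± 0.13 at 4 Hz (adjusted p = 0.000793), and its relative Amotl1 by 0.57 ± 0.11 at 1 Hz (adjusted p = 0.000202). For these genes, stimulated and control libraries did not overlap where they passed. Lats1 differed by −0.27 at 4 Hz (adjusted p = 0.0323), close to the −0.26 of Lats2.

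The ligands of Axl were low in level. Gas6 rose from 7.30 ± 1.30 CPM in control to 13.1 ± 2.31 at 1 Hz (0.84 ± 0.22, adjusted p = 0.00436) and 11.7 ± 3.58 at 4 Hz (0.67 ± 0.22, adjusted p = 0.0162). Pros1, protein S, rose to 17.5 ± 4.96 CPM at 1 Hz from 7.44 ± 3.48 (1.28 ± 0.24, adjusted p = 0.000213). Of the receptors of the same family, Mertk fell by 0.88 on the log2 scale at 4 Hz (adjusted p = 8.77e-05) and by 0.97 at 10 Hz (adjusted p = 0.000854), and Tyro3 did not pass at any frequency.

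YAP and the SRF cofactors MRTF-A and MRTF-B both respond to actin, and 15 genes of SRF, MRTF, and their cytoskeletal targets were tested. Of these, 0 fell at any frequency, beside 8.99%, 9.61%, and 0.623% of all tested genes at 1, 4, and 10 Hz. At 10 Hz, 0 rose, beside 1.24% of all tested genes. At 1 Hz and at 4 Hz, 2 rose, near the shares of all tested genes, 9.34% and 10.5%. Both were smooth muscle type contractile genes, Acta2, from 197 ± 62.4 CPM to 420.5 ± 88.2 at 1 Hz and 469 ± 80.1 at 4 Hz (1.09 ± 0.19 and 1.25 ± 0.19, adjusted p = 9.24e-05 and 1.28e-05), and Tagln, by 1.03 ± 0.21 and 1.35 ± 0.21 (adjusted p = 0.000472 and 1.68e-05).

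**Figure D4:**
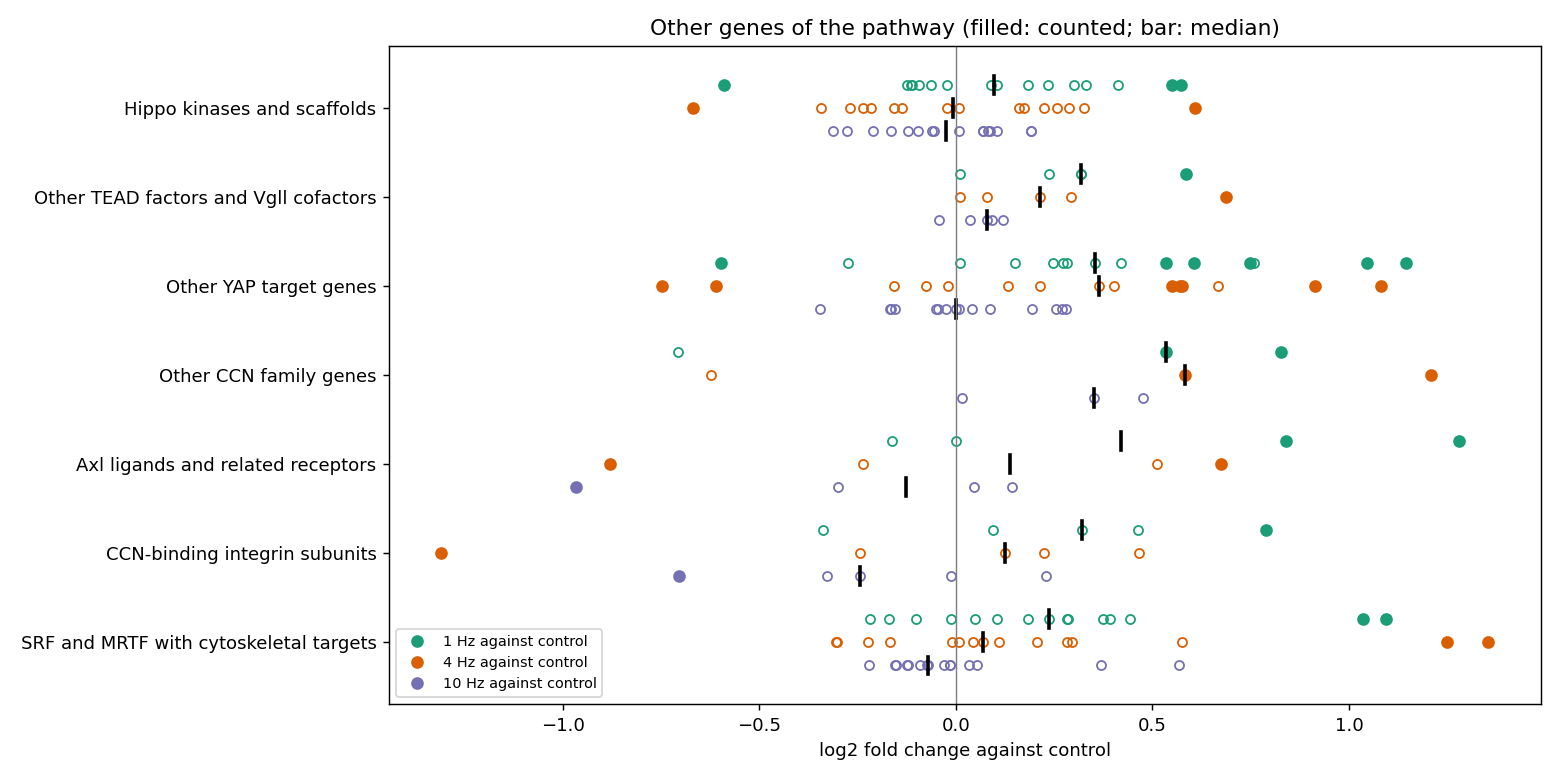
Log2 fold change against control (x axis) of the 63 tested genes of 7 pathway lists (y axis) at 1, 4, and 10 Hz, with 1 dot per gene and frequency, filled where both thresholds were passed, and a black bar at the median of the list. At 10 Hz, 2 dots, Itgb3 and Mertk, are filled, while at 1 Hz and 4 Hz filled dots lie on both sides, 15 higher and 2 lower and 12 higher and 5 lower.

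Genes whose pattern over the 24 libraries was most like that of Ccn1 were sought among 9056 genes with a mean of at least 10 CPM, by the root mean square difference of centered log2 CPM. The 5 closest were Ptger4 (0.33), Fos (0.35), Dusp1 (0.38), Irs2 (0.40), and Stmn4 (0.40), against a spread of 0.82 for Ccn1 itself. Fos, an AP-1 subunit, and Dusp1, a phosphatase of MAP kinases, are immediate early genes, as Ccn1 is. Fos was at 28.9 ± 5.72 CPM in control, 12.3 ± 3.29 at 1 Hz, 6.01 ± 1.12 at 4 Hz, and 14.2 ± 7.99 at 10 Hz. Dusp1 was at 92.1 ± 11.9, 73.8 ± 9.52, 33.5 ± 4.38, and 49.7 ± 11.6 CPM in the same order. Each was therefore lowest at 4 Hz, like Ccn1, and as these genes were chosen for that likeness their levels are given as a description, without p-values.

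For Ccn2, the 5 closest were Noct (0.22), Gja1 (0.22), Tnc (0.23), Snx18 (0.23), and Thbs1 (0.23), against a spread of 0.38 for Ccn2. Tnc and Thbs1 encode the matricellular proteins tenascin C and thrombospondin 1, and Gja1 encodes connexin 43. Thbs1 was at 662 ± 251 CPM in control, 768 ± 72.7 at 1 Hz, 525 ± 56.4 at 4 Hz, and 560.2 ± 139 at 10 Hz, with the same wide spread in control. Promoter windows were at hand for 4 of each 5, and GGAATG was found in 0 of them (12.64% of all windows). The CRE motif was found before 1 of the 4 genes most like Ccn1 (1.55% of all windows). The AP-1 motif was found before 1 of the 4 most like Ccn2 (6.75% of all windows).

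Markers of other cell types were read beside these levels. Fibroblast markers summed to 38.9 to 67.3 CPM in control, 36.5 to 56.8 at 1 Hz, 31.3 to 37.5 at 4 Hz, and 35.9 to 47.7 at 10 Hz, carried by Dcn and Pdgfra, while Lum had at most 1 count and Tcf21 at most 2 in any library. On library totals without TMM factors, the 4 Hz range thus lay below the control range, and the 1 Hz and 10 Hz ranges overlapped it. The part of these markers in the level of Ccn1 and Ccn2 was not tested. Of these, Dcn fell at 4 Hz, from 35.9 ± 13.1 to 23.6 ± 2.10 CPM (−0.59 ± 0.17, adjusted p = 0.00695). Markers of undifferentiated myoblasts summed to 441 to 524 CPM in control and 503 to 570.0 over the stimulated libraries, most of it Sdc4 at a mean of 371 CPM in control and 416 to 426 when stimulated, and the other members went both ways. Pax7, low in level, rose by 0.99 ± 0.36 at 1 Hz and 1.04 ± 0.36 at 4 Hz (adjusted p = 0.0349 and 0.0230), and Myf5 fell at 4 Hz (−0.61 ± 0.18, adjusted p = 0.00879). Markers of dividing cells summed to 25.0 to 31.3 CPM in control and 18.9 to 38.8 when stimulated. Among them, at 4 Hz, Mki67 and Top2a rose (1.28 ± 0.46 and 0.69 ± 0.23, adjusted p = 0.0280 and 0.0182) while Cdk1 was at −0.38 (adjusted p = 0.0260), under the fold threshold. Endothelial markers summed to at most 2.15 CPM. Macrophage markers summed to 66.0 to 124 CPM over all libraries, nearly all of it Cd68, at a mean of 96.2 CPM in control and 82.8 to 93.1 when stimulated. Csf1r was at 1.49 ± 0.649 CPM in control and fell at 4 Hz to 0.602 ± 0.325 (−1.33 ± 0.45, adjusted p = 0.0195), and Ptprc and Adgre1 had at most 1 count in any library. The libraries of each of these genes overlapped control where they passed, and their part in the levels of the genes described was not tested. The myotube sum was higher at 1 Hz and 4 Hz than in every control library, and its part in those levels was not tested. Its members differed. Acta1, the largest, had a mean of 2889 CPM in control, 4954 at 1 Hz, and 5152 at 4 Hz. Mylpf, Tnnt3, and Tnnc2 also rose at both frequencies, whereas Ckm and Mb passed at neither.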

How the data were processed

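RNA came from 24 tissues, grouped and numbered as in the titles of the samples. The authors selected poly(A) RNA, sequenced directional paired-end libraries, and ran the nf-core/rnaseq pipeline (STAR and salmon, versions not given in the sources used here) on GRCm39 with an Ensembl annotation. The deposited values were salmon estimated counts (expected counts per gene, not normalized, 6.62% to 10.6% of values per library not whole) and TPM, which the authors had scaled to 1 common sum. No column was left without a sample (0). The use of strand in counting and the names of the ribodepleted samples are likewise not given.

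Estimated counts were rounded. The filterByExpr function of edgeR kept 13318 of 56941 genes, with 99.8% of all counts. With R 4.3.3, limma 3.58.1, and edgeR 4.0.16, the counts of all 24 libraries were scaled by TMM and fitted together by condition alone (common dispersion 0.0233), and contrasts were tested by quasi-likelihood. The p-values were adjusted after Benjamini and Hochberg for all genes tested, and "rose", "fell", and "passed" mean that the adjusted p was below 0.05 and the log2 fold change beyond 0.5 in size, the thresholds of the study. Likeness used log2 CPM with a prior count of 2. CPM of single genes used the TMM factors, whereas marker sums and the small RNA share used the library total alone. Counting error is set by 4.09 to 15.2 M counts per library. No 2 libraries of a condition were copies of each other, as over 60 pairs the chi-square per gene was at least 3.18.

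The members, lists, and tests were chosen with earlier results of these data known. Named beside the members are, from each pathway list, up to 2 genes per direction and frequency with the largest change among those that passed without overlap of the libraries, the other Tead and Ccn genes and the ligands and receptors of Axl, and the 5 genes most like Ccn1 and the 5 most like Ccn2. Lats1, Itgav, Itgb1, and Itgb5 were added after their values were seen. Positions came from GENCODE M39 (GRCm39), promoter windows from RefSeq (GRCm38.p6), and the builds were not mixed. The fit was tested on simulated data over 13318 genes with 200 changed by 2-fold, where it recovered 84% for 1 Hz against control with 3.45% of its calls false.

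Alternatives were DESeq2 1.42.0, also with shrinkage by apeglm 1.24.0, DESeq2 size factors, total count scaling, no filter, a minimum mean of 5 CPM, limma on TPM (pseudocounts of 1 and 0.1, with a minimum mean of 1 TPM, and a pseudocount of 1 with no minimum), a fit of the 12 libraries compared, a replicate block, the log2 small RNA share as a covariate, the adjusted p alone, and leaving out each of the 24 libraries. A log2(TPM + pseudocount) scale makes the changes of low genes look smaller.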

Additional observations from a re-analysis of the deposited data

Results flagged for a closer look

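In 3 of the 40 groups of 6 libraries (10 genes in 4 conditions), 1 library stood farther from the others than Dixon's 95% critical value for the gap over the range, which chance alone exceeds in about 1 of 20 groups. The highest 4 Hz library of Ccn1 (replicate 2) held 133 CPM, and the next held 93.8 CPM, a gap of 0.637 of the range. The highest 1 Hz library of Lats2 (replicate 5) held 179.6 CPM, and the next held 160.0 CPM (0.788 of the range). The highest control library of Wwtr1 (replicate 6) held 184 CPM, and the next held 157 CPM (0.771 of the range). The 3 values came from 3 different libraries. Leaving out any 1 library changed no call of the 10 genes.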

How the results depend on the processing

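The count of genes that passed, 0, 1, and 0 of the 9 against control at 1, 4, and 10 Hz and 2, 0, and 1 of 10 for 4 Hz against 1 Hz, 10 Hz against 1 Hz, and 10 Hz against 4 Hz, was the same under DESeq2 with and without shrinkage, other scalings, other filters on counts, the 12 libraries compared, and each library left out. By adjusted p alone, it was 2 (1 Hz) and 4 (4 Hz) against control and 4, 3, and 2 between frequencies, and the pathway genes numbered 31, 28, and 4 in place of 17, 17, and 2. Under limma on TPM, in all 3 settings, it was 2 for 4 Hz against control, as Lats2 also passed, and Amotl2 passed for 4 Hz against 1 Hz at −0.52. With the small RNA covariate, it was 0 for 4 Hz against control, 1 for 10 Hz against 1 Hz, and 0 for 10 Hz against 4 Hz, and pathway genes numbered 0 at 1 Hz and 4 at 4 Hz. Control libraries all had a larger share than 1 Hz and 4 Hz libraries, so the covariate and stimulation cannot be told apart there. Each of the 10 genes had at least 204 estimated counts in every library. For the counts by adjusted p alone, the share of all genes is not given here.

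Over 36 pairs of same-numbered libraries, the correlation of deviations ran from −0.18 to 0.36 with a median of 0.017 (10 over 0.1). Libraries with different numbers were not compared, so whether the replicate numbers pair the libraries was not settled. With the replicate block, the counts over the 10 genes did not change, and pathway genes numbered 18, 19, and 3. Without control replicate 6 or without 10 Hz replicate 3, pathway genes at 10 Hz numbered 4, and the range over all libraries left out was 2 to 4.

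Directions turned only for differences that had not passed, and the cause was not tested. With the small RNA covariate, log2 fold changes turned against control at 1 Hz to 0.63 (Ccn2), 0.075 (Ankrd1), −0.064 (Amotl2), −0.22 (Tead1), and −0.22 (Tead4), at 4 Hz to −0.064 (Tead1) and −0.27 (Tead4), and at 10 Hz to −0.0089 (Wwtr1) and −0.043 (Tead1). Between frequencies, they turned to 0.18 for Tead1 (10 Hz against 1 Hz) and to −0.20 for Ccn2 and 0.021 for Tead1 (10 Hz against 4 Hz). Under limma on log2(TPM + 1), with and without the filter, and on log2(TPM + 0.1), they turned against control at 4 Hz to −0.015 and −0.015 (Wwtr1) and −0.11 and −0.12 (Tead4), and at 10 Hz to −0.10 and −0.10 (Yap1), −0.10 and −0.10 (Wwtr1), and −0.076 and −0.079 (Tead1). They turned for 4 Hz against 1 Hz to −0.014 and −0.015 (Tead1), for 10 Hz against 1 Hz to 0.0028 and 0.0029 (Lats2) and −0.028 and −0.030 (Tead4), and for 10 Hz against 4 Hz to 0.11 and 0.12 (Axl). With total count scaling, which moved the median of all genes by up to −0.11 (4 Hz against control), they turned to −0.020 (Tead4, 4 Hz), −0.0078, −0.032, and −0.026 (Yap1, Wwtr1, and Tead1, 10 Hz), and 0.051 (Axl, 10 Hz against 4 Hz). With no filter, they turned to 0.013 (Lats2, 1 Hz), 0.023 (Axl, 4 Hz), and −0.019 (Amotl2, 10 Hz against 4 Hz), and with the replicate block to −0.0011 (Wwtr1, 10 Hz), −0.018 (Tead1, 10 Hz), and −0.00099 (Amotl2, 10 Hz against 4 Hz). That of Amotl2 was −0.0013 with DESeq2 size factors, −0.0012 under DESeq2, and −0.00092 with apeglm.

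With each library left out in turn, values that crossed 0 ran from −0.15 to 0.067 (Ccn2, 1 Hz), −0.13 to 0.075 (Ankrd1, 1 Hz), −0.053 to 0.018 (Lats2, 1 Hz), −0.19 to 0.010 (Ankrd1, 4 Hz), −0.075 to 0.040 (Axl, 4 Hz), −0.011 to 0.22 (Ankrd1, 10 Hz), −0.026 to 0.051 (Wwtr1, 10 Hz), −0.062 to 0.11 (Tead1, 10 Hz), and −0.090 to 0.027 (Axl, 10 Hz), all against control. They ran from −0.034 to 0.16 (Tead4, 10 Hz against 1 Hz), −0.043 to 0.048 (Amotl2, 10 Hz against 4 Hz), and −0.050 to 0.032 (Axl, 10 Hz against 4 Hz).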
